A study of Mus musculus with 10 samples.

Results

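Ribosome footprints of 2 knockout lines of mouse embryonic stem cells were compared with each other: 2 libraries labelled as the Dgcr8 knockout, and 2 libraries labelled as the double knockout of Ago1 and Ago2. They were chosen by their labels and are 4 of the 10 libraries of the series. The other 6 libraries are 2 each of a Drosha knockout, a Dicer knockout and WT cells, and they enter the shared statistical model and serve as landmarks. All 5 groups are E14 cells of the 129/Ola strain, a male line derived from the inner cell mass, grown on gelatine in medium with serum and LIF, and briefly treated with cycloheximide, which stalls ribosomes on mRNA. The labels give no treatment that sets the groups apart other than the knockout. The labels do not say which exons were removed, whether a group is 1 clone or several, or whether the replicates were separate cultures. The p-values therefore measure the spread between these libraries only, which may be technical.

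Ribosome profiling sequences the stretches of mRNA that ribosomes shield from nuclease, so a footprint count follows both the amount of an mRNA and its load of ribosomes. Dgcr8 is the RNA-binding partner of the nuclease Drosha. Together they form the Microprocessor, which cuts primary microRNA transcripts in the nucleus. Ago proteins act at the other end of the pathway, where they hold the finished microRNA and bring the silencing machinery to target mRNAs. Some small RNAs, such as mirtrons, bypass the Microprocessor but still need an Ago protein, and the Microprocessor also cuts some RNAs that are not microRNAs. By their labels the libraries set a loss at an early step beside a loss at a late one, and the levels of the targeted genes, given below, bear on how far those labels can be taken. The labels state no hypothesis for the comparison.

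Total counts were 80850950 and 4955916 in the libraries labelled Dgcr8 knockout (called Dgcr8-labelled libraries from here), and 14064896 and 35168638 in the Ago libraries. The deepest of these 4 had 16.3 times the counts of the shallowest. The table held 11011 genes, of which 10978 were tested. Levels are given in CPM, which is counts scaled to a common library size, and 3 counts correspond to 0.0371 and 0.605 CPM in the Dgcr8-labelled libraries and to 0.213 and 0.0853 CPM in the Ago libraries. In the second Ago library a single gene, Creb5, took 3.94% of all counts. Across genes, which are not independent replicates, log2 CPM correlated with r = 0.928 between the Dgcr8-labelled libraries and with r = 0.928 between the Ago libraries. The second Dgcr8-labelled library and the second Ago library correlated almost as highly, with r = 0.926. The first Dgcr8-labelled library correlated more highly with the WT libraries, at r = 0.959 and 0.947, than with its own replicate. The first Ago library likewise correlated more highly with the first Drosha library, at r = 0.946, and with the first Dicer library, at r = 0.931, than with its own replicate. The 8 markers of embryonic stem cells, Pou5f1, Sox2, Nanog and Klf4 among them, summed to 4830 and 4324 CPM in the Dgcr8-labelled libraries and to 4689 and 4199 CPM in the Ago libraries. All 8 were tested and 0 were called.

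The targeted genes were read first, and of the genes the 2 labels name, only Ago2 was lower in its own knockout than in WT. Dgcr8 itself had 144.8 and 145.6 CPM in the Dgcr8-labelled libraries and 74.6 and 63.5 CPM in the Ago libraries, against a mean of 32.9 CPM in WT (Dgcr8-labelled minus WT log2 2.14, adjusted p = 0.015). The gene named in the label was thus higher in the libraries that carry it than in either the Ago libraries or WT. Dgcr8 was also above WT in the Drosha libraries, at 169 and 197 CPM, and in the Dicer libraries, at 64.5 and 76.1 CPM. A rise over WT was thus not particular to the Dgcr8-labelled libraries, and its cause was not tested. A count over the whole gene does not show whether a protein was made, and every direction given for these libraries carries that doubt. The difference from the Ago libraries had a log2 fold change of 1.07 (SE 0.25) and missed the threshold (adjusted p = 0.088). Here and below, log2 fold changes are Dgcr8-labelled minus Ago, and adjusted p-values are from edgeR's quasi-likelihood test with Benjamini-Hochberg adjustment over all genes tested.

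Ago2, the Ago protein that can cut its target, had 106.7 and 99.8 CPM in the Dgcr8-labelled libraries and 14.9 and 6.61 CPM in the Ago libraries. The groups were far apart, in the direction of the labels (log2 3.28, SE 0.38, adjusted p = 0.013). Ago1, the other gene named in the Ago label, had 24.9 and 38.3 CPM in the Dgcr8-labelled libraries and 27.0 and 10.7 CPM in the Ago libraries. Its groups overlapped (log2 0.74, adjusted p = 0.50). WT had 14.7 and 14.3 CPM, so Ago1 was not lower in the Ago libraries than in WT (Ago minus WT log2 0.37, adjusted p = 0.67), and its footprints do not show the loss that the label names. Drosha, the catalytic subunit that Dgcr8 binds, had 165 and 270 CPM in the Dgcr8-labelled libraries and 255 and 313 CPM in the Ago libraries (log2 -0.39, adjusted p = 0.65). Dicer1, the nuclease that makes the mature microRNA duplex, had 160 and 169 CPM in the Dgcr8-labelled libraries and 129 and 144 CPM in the Ago libraries (log2 0.27, adjusted p = 0.81). Neither passed the test. In GRCm38 coordinates, Dgcr8 lies at chr16:18253948-18289246, Ago2 at chr15:73095844-73184935 and Ago1 at chr4:126435012-126468583.

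Of the 26 tested genes of the Argonaute and silencing effector list, Ago2 was the 1 called, and the median log2 fold change was 0.21. The 2 lowest members were scaffolds that Ago proteins recruit. Tnrc6b had 61.0 and 65.3 CPM in the Dgcr8-labelled libraries and 154 and 149 CPM in the Ago libraries (log2 -1.26, adjusted p = 0.057), and Tnrc6a had 34.8 and 56.4 CPM, against 67.6 and 102 CPM in the Ago libraries (log2 -0.90, adjusted p = 0.28). For both genes every Dgcr8-labelled library lay below every Ago library, without passing the test. Of the 18 tested members of the microRNA biogenesis list 0 were called, and the median was 0.12.

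Between the 2 groups, 14 genes (0.128%) were higher and 39 (0.355%) lower in the Dgcr8-labelled libraries at an adjusted p under 0.05, together 0.483% of the 10978 tested. The median log2 fold change of all genes was -0.02. At an unadjusted p under 0.05 there were 505 higher and 864 lower genes. All 53 called genes had Dgcr8-labelled and Ago libraries that did not overlap, as did 16.8% of all genes with the Dgcr8-labelled libraries above and 19.6% with them below. In the same model the Dgcr8-labelled libraries differed from Drosha libraries at 55 genes (0.501%), from Dicer libraries at 447 (4.07%) and from WT at 8 (0.0729%). The Ago libraries differed from Drosha libraries at 5 genes (0.0455%), from Dicer libraries at 60 (0.547%) and from WT at 316 (2.88%). These comparisons share libraries with each other, so their counts are given side by side and no overlap is drawn from them. Depth differed too, with total counts of 1854243 and 2230566 in the Drosha libraries and 5432599 and 1754710 in the Dicer libraries. WT had 11082243 and 23731070. The part of depth in the numbers of calls was not tested.

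**Figure D1:**
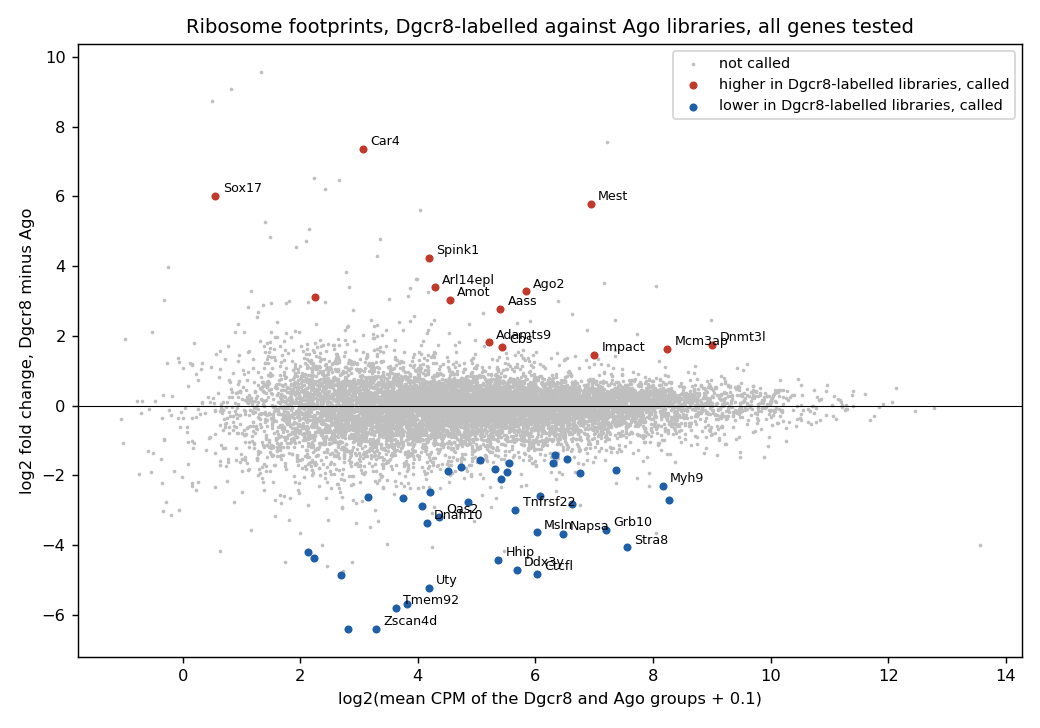
Each point is a gene, with log2(mean CPM + 0.1) of the Dgcr8-labelled and Ago groups on the x axis and the log2 fold change, Dgcr8-labelled minus Ago, on the y axis. The 14 genes called higher are red, the 39 called lower are blue, and the median of all 10978 genes is at -0.02.

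The call of a gene often depended on which libraries were in the fit, among them libraries of the other groups. Lost calls given below for single genes cover the 4 compared libraries only. Some of those genes, such as Dnmt3l, Mcm3ap, Impact and Cbs, also lost their call without a WT library. Of the 53 genes, 5 were still called without the first Dgcr8-labelled library, 30 without the second, 24 without the first Ago library and 20 without the second, while all 53 kept their direction in each of these fits. Total calls in these fits were 8, 98, 50 and 26. Leaving out a library of another group, which only feeds the estimate of spread, left between 22 and 49 of the 53. Ago2 and Ctcfl were called under all 18 alternatives tried. The genes nearest to the threshold were Gpt2 inside it (adjusted p = 0.048), and Plk2 and Car2 just outside it (both adjusted p = 0.051).

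Among the 39 genes lower in the Dgcr8-labelled libraries was Ctcfl, the germline paralogue of the insulator protein Ctcf. It had 6.13 and 1.99 CPM in the Dgcr8-labelled libraries and 69.97 and 183 CPM in the Ago libraries. Drosha, Dicer and WT libraries all lay at or under 3.17 CPM, so the Ago libraries were the high ones (log2 -4.82, SE 0.60, adjusted p = 0.013). Across all alternatives the log2 fold change stayed between -5.98 and -3.99. Stra8, which retinoic acid switches on at the entry into meiosis, had 32.2 and 9.16 CPM in the Dgcr8-labelled libraries and 204 and 509 CPM in the Ago libraries. WT stood in between, at 76.9 and 51.4 CPM (log2 -4.06, SE 0.67, adjusted p = 0.029, but 0.058 without the first Dgcr8-labelled, 0.071 without the second, and 0.088 without the second Ago library). Ctcfl was the 1 called gene among the 15 tested members of the germline list, whose median was -0.03, and the PIWI family member Piwil2 had 34.0 and 34.5 CPM in the Dgcr8-labelled libraries and 67.3 and 99.5 CPM in the Ago libraries (log2 -1.29, adjusted p = 0.077).

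The 2-cell-like state is a rare state of embryonic stem cell cultures, named for the 2-cell embryo. Of the 3 tested members of the list for this state, 2 were called lower, beside 0.355% of all genes. Both were near 0 in the Dgcr8-labelled libraries. Tmem92 had 0.376 and 0.598 CPM in the Dgcr8-labelled libraries and 38.3 and 9.66 CPM in the Ago libraries (log2 -5.80, SE 0.83, adjusted p = 0.0155). Zscan4d, of a family of genes active at the 2-cell stage, had 0.182 and 0.398 CPM in the Dgcr8-labelled libraries and 32.9 and 5.39 CPM in the Ago libraries (log2 -6.40, SE 1.15, adjusted p = 0.038). WT lay at 1.11 CPM or below for both genes, while every Drosha and Dicer library lay at 4.22 CPM or above. The third tested member, Eif1a, had 53.7 and 67.9 CPM in the Dgcr8-labelled libraries and 22.1 and 66.1 CPM in the Ago libraries, and its groups overlapped (log2 0.46). The 3 members summed to 52.9 and 58.1 CPM in WT, nearly all of it Eif1a, so Eif1a does not mark a rare state here. The list has 18 genes in all. Without the first Dgcr8-labelled library neither gene was called (adjusted p = 0.13 for Tmem92 and 0.25 for Zscan4d), and Zscan4d also lost its call without the second (0.075) and without the first Ago library (0.081). Close copies of Zscan4d share its sequence, so its count is uncertain.

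In these bulk libraries, fewer cells of a type and less RNA per cell cannot be told apart, and this holds for every gene group that follows.

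Innate immune genes were lower in the Dgcr8-labelled libraries at 2 called genes. Oas2, which makes the messenger that activates RNase L on double-stranded RNA, had 4.10 and 3.98 CPM in the Dgcr8-labelled libraries and 43.7 and 30.2 CPM in the Ago libraries. The Dgcr8-labelled libraries lay with WT, at 4.61 and 7.09 CPM, and the Ago libraries with Dicer, at 46.5 and 28.1 CPM (log2 -3.19, SE 0.40, adjusted p = 0.013, and 0.058 without the first Dgcr8-labelled library). Tmem173, which encodes the DNA-sensing adaptor STING, had 5.21 and 2.39 CPM in the Dgcr8-labelled libraries and 37.3 and 22.1 CPM in the Ago libraries (log2 -2.87, SE 0.52, adjusted p = 0.038). It lost its call without any 1 of these 4 libraries, at adjusted p-values between 0.055 and 0.099. Tmem173 is not a member of the interferon list and was named after its values were seen.

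Of the 22 tested interferon and double-stranded RNA response genes, Oas2 was the 1 called. The median of the list was -0.59, and it stayed between -0.64 and -0.41 under all alternatives. In 12 of the 22 genes both Dgcr8-labelled libraries lay below both Ago libraries, and in 2 they lay above, beside 19.6% and 16.8% of all genes. Eif2ak2, the kinase PKR that halts translation on double-stranded RNA, had 16.2 and 11.0 CPM in the Dgcr8-labelled libraries and 32.9 and 46.2 CPM in the Ago libraries (log2 -1.52, adjusted p = 0.060). Parp9, Oas1a, Parp14 and Irf9 had log2 values between -1.39 and -1.04 without being called. The 2 exceptions were Ddx58, the RNA sensor RIG-I, at log2 0.63, and its ubiquitin ligase Trim25, at log2 0.43. Neither was called.

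The naming rule picked 5 further lower genes of varied function. Msln, a surface glycoprotein of mesothelium, had 6.51 and 13.7 CPM in the Dgcr8-labelled libraries and 150 and 89.8 CPM in the Ago libraries (log2 -3.63, SE 0.49, adjusted p = 0.015). Hhip, a membrane protein that binds and restrains Hedgehog ligands, had 2.23 and 5.98 CPM in the Dgcr8-labelled libraries and 115 and 42.0 CPM in the Ago libraries (log2 -4.43, SE 0.70, adjusted p = 0.028). For both genes WT stayed under 5 CPM and every Drosha and Dicer library exceeded 30 CPM. Napsa, an aspartic protease, had 16.5 and 8.57 CPM in the Dgcr8-labelled libraries and 200 and 128 CPM in the Ago libraries (log2 -3.67, adjusted p = 0.0155). Tnfrsf22, a decoy receptor for the death ligand TRAIL, had 12.6 and 9.56 CPM in the Dgcr8-labelled libraries and 146 and 33.0 CPM in the Ago libraries (log2 -2.99, adjusted p = 0.046). The axonemal dynein Dnah10 had 2.41 and 4.18 CPM in the Dgcr8-labelled libraries and 18.7 and 45.2 CPM in the Ago libraries (log2 -3.37, adjusted p = 0.038). None of these 5 genes had overlapping groups. Without the first Dgcr8-labelled library all 5 lost their call (adjusted p between 0.058 and 0.22), and without the second Napsa (0.052), Tnfrsf22 (0.13) and Dnah10 (0.061) did. Without the first Ago library, Hhip (0.058) and Tnfrsf22 (0.098) lost it, and without the second Dnah10 (0.13).

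Among the lower genes, Grb10 and Myh9 were high in WT as well as in the Ago libraries, while Rhob was not high in WT. Grb10, the product of an imprinted gene and a brake on insulin receptor signalling, had 34.8 and 9.76 CPM in the Dgcr8-labelled libraries and 283 and 258 CPM in the Ago libraries, while WT stood at 472 and 576 CPM. Myh9, a myosin heavy chain found outside muscle, had 89.2 and 106 CPM in the Dgcr8-labelled libraries and 531 and 423 CPM in the Ago libraries, while WT stood at 455 and 719 CPM. For both genes the Dgcr8-labelled libraries were below the other 8 (Grb10 log2 -3.56, SE 0.54, adjusted p = 0.019, and Myh9 log2 -2.29, SE 0.34, adjusted p = 0.016). Myh9 lost its call without the first Dgcr8-labelled library (adjusted p = 0.095) and Grb10 without the second Ago library (0.0501). Rhob, a small GTPase that controls actin and endosomes, had 7.44 and 12.6 CPM in the Dgcr8-labelled libraries and 40.9 and 30.5 CPM in the Ago libraries, while WT stood at 6.73 and 7.72 CPM (log2 -1.87, SE 0.35, adjusted p = 0.042). Leaving out any 1 of these libraries but the second Dgcr8-labelled one ended the Rhob call, at adjusted p-values between 0.068 and 0.18. Myh9 and Rhob were the 2 called genes among 35 tested actin and adhesion genes, whose median was 0.26.

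Where the other groups stood can be described for the whole lower set, bearing in mind that its genes were selected on the Dgcr8-labelled and Ago libraries. On the log2 scale, the Drosha mean lay nearer to the Ago mean for 35 of the 39 genes, against 52.9% of all genes, and the Dicer mean for 35, against 58.4%. The WT mean lay nearer to the Dgcr8-labelled mean for 31 of the 39, against 60.4% of all genes. In 25 genes Drosha and Dicer both stood by the Ago libraries and WT stood by the Dgcr8-labelled ones, among them Tmem92, Zscan4d, Oas2, Tmem173, Msln, Hhip, Grin1, Smyd1 and Rhob. In 8 genes all of Drosha, Dicer and WT stood by the Ago libraries, among them Grb10, Myh9, Irf2bp2, Uty and Ddx3y. Ctcfl and the metalloprotease Adamts14 were the 2 for which all of them stood by the Dgcr8-labelled libraries. The 14 higher genes were more evenly split. The Drosha mean lay nearer to the Dgcr8-labelled mean for 8 of the 14, against 47.1% of all genes. The Dicer mean did so for 6, against 41.6%, and the WT mean for 10, against 60.4%.

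**Figure D2:**
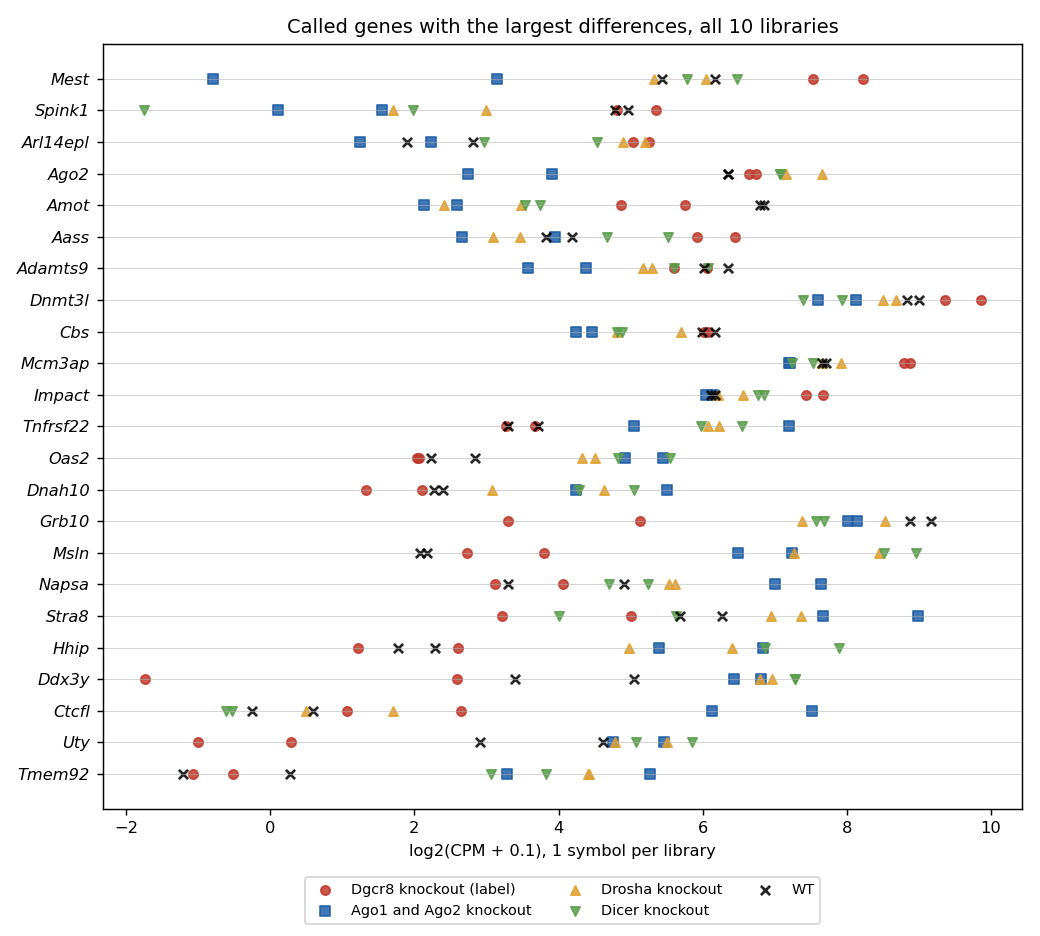
The 23 called genes that the naming rule picked for their size are on the y axis and log2(CPM + 0.1) is on the x axis, with 1 symbol per library and colours for the 5 groups. Ctcfl is high in the Ago libraries alone, Grb10 is lowest in the Dgcr8-labelled libraries, and Ago2 is lowest in the Ago libraries.

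Among the 14 genes higher in the Dgcr8-labelled libraries was Mest, an imprinted gene expressed from the paternal allele. It had 184 and 299 CPM in the Dgcr8-labelled libraries and 8.77 and 0.474 CPM in the Ago libraries (log2 5.78, SE 0.98, adjusted p = 0.031, and 0.061 without the first Dgcr8-labelled library). The Drosha, Dicer and WT libraries lay between 40.1 and 88.8 CPM, so Mest was above them in the Dgcr8-labelled libraries and below them in the Ago libraries. Dnmt3l, the cofactor of the de novo DNA methyltransferases, had 658 and 927 CPM in the Dgcr8-labelled libraries and 279 and 193 CPM in the Ago libraries. WT again stood in between, at 457 and 513 CPM (log2 1.75, SE 0.31, adjusted p = 0.038). Dnmt3l lost its call without any 1 of the 4 libraries, at adjusted p-values between 0.058 and 0.14. Of 19 tested DNA methylation genes it was the 1 called, and the list's median was 0.02. On the other side of the same list, the 5-methylcytosine oxidase Tet1 had 307 and 273 CPM in the Dgcr8-labelled libraries and 805 and 534 CPM in the Ago libraries (log2 -1.21, adjusted p = 0.094).

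Amot, a junction scaffold that binds the Hippo effector Yap, had 53.7 and 29.1 CPM in the Dgcr8-labelled libraries and 5.94 and 4.30 CPM in the Ago libraries. Both groups lay below WT, at 115 and 112 CPM (log2 3.04, SE 0.40, adjusted p = 0.013). Spink1, a secreted inhibitor of trypsin, had 40.9 and 27.9 CPM in the Dgcr8-labelled libraries and 2.83 and 0.978 CPM in the Ago libraries, and WT was at 31.1 and 27.5 CPM (log2 4.24, SE 0.75, adjusted p = 0.038). Cbs, the enzyme that joins homocysteine to serine, had 67.1 and 64.8 CPM in the Dgcr8-labelled libraries and 18.7 and 22.0 CPM in the Ago libraries, and WT was at 63.2 and 71.8 CPM (log2 1.69, adjusted p = 0.043). For Spink1 and Cbs the Dgcr8-labelled libraries thus stood at the WT level and the Ago libraries below it. Without the second Ago library none of these 3 was called (adjusted p of 0.066 for Amot, 0.13 for Spink1 and 0.11 for Cbs), and without the first Dgcr8-labelled library none was either (0.058, 0.11 and 0.12 in the same order). Without the first Ago library Spink1 (0.053) and Cbs (0.12) also lost their call, and without the second Dgcr8-labelled library Cbs did (0.061).

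In 3 other higher genes the Dgcr8-labelled libraries lay above WT. Aass, the first enzyme of lysine breakdown, had 60.2 and 87.1 CPM in the Dgcr8-labelled libraries and 15.4 and 6.25 CPM in the Ago libraries, and WT was at 18.2 and 14.0 CPM (log2 2.77, SE 0.46, adjusted p = 0.029). Mcm3ap, a scaffold of nuclear mRNA export, had 445 and 472 CPM in the Dgcr8-labelled libraries and 146 and 149 CPM in the Ago libraries, and WT was at 202 and 209 CPM (log2 1.64, SE 0.25, adjusted p = 0.022). Impact, an imprinted inhibitor of the amino acid sensor kinase Gcn2, had 173 and 203 CPM in the Dgcr8-labelled libraries and 70.7 and 66.3 CPM in the Ago libraries, and WT was at 71.9 and 69.4 CPM (log2 1.46, SE 0.26, adjusted p = 0.038). For Impact the Ago libraries stood at the WT level. Impact lost its call without any 1 of the 4 libraries (adjusted p between 0.071 and 0.11), Mcm3ap without all but the second Dgcr8-labelled one (0.058 to 0.074), and Aass without all but the first Ago one (0.058 to 0.093). Arl14epl (log2 3.39) and the secreted protease Adamts9 (log2 1.82) were also called, as were Car4, a membrane carbonic anhydrase (log2 7.37), and Pid1 (log2 3.10), both under 20 CPM in the higher group and named here because so few genes were higher. Against WT these 4 differed in place. Arl14epl lay above WT, which had 6.91 and 3.61 CPM, while Adamts9 (64.5 and 81.4 CPM in WT) and Pid1 (5.35 and 10.2 CPM in WT) overlapped it and Car4 lay below it (42.0 and 41.3 CPM in WT). Pid1 lost its call without any 1 of the 4 libraries, Adamts9 without all but the first Ago one, and Arl14epl and Car4 without the first Dgcr8-labelled or the second Ago one, at adjusted p-values between 0.057 and 0.15.

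Imprinted genes split between both directions. Of 17 tested members, Mest and Impact were higher and Grb10 was lower, beside 0.483% of all genes called, and the median was 0.90, with a range of 0.57 to 1.20 over all alternatives. In 9 genes both Dgcr8-labelled libraries lay above both Ago libraries, and in 5 they lay below, beside 16.8% and 19.6% of all genes. Peg10, a placental gene derived from a retrotransposon, was on the higher side, with 539 and 1169 CPM in the Dgcr8-labelled libraries and 231 and 81.2 CPM in the Ago libraries (log2 2.45, adjusted p = 0.079). Snrpn had 18.2 and 40.6 CPM in the Dgcr8-labelled libraries and 4.88 and 8.06 CPM in the Ago libraries (log2 2.16, adjusted p = 0.25), and the other non-overlapping higher genes were Nnat, Ndn, Zdbf2, Sgce and Mcts2. Phlda2, a maternally expressed gene that limits placental growth, was on the lower side, with 48.9 and 88.3 CPM in the Dgcr8-labelled libraries and 158 and 223 CPM in the Ago libraries (log2 -1.48, adjusted p = 0.088). Cdkn1c, Slc22a18 and H13 were the other 3 with lower Dgcr8-labelled libraries. The genes on the higher side are, by background knowledge of the mouse, paternally expressed ones, while Phlda2, Cdkn1c and Slc22a18 are maternally expressed. Parental alleles were not measured.

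Primitive endoderm genes separated the replicates of the Dgcr8-labelled group more than they separated the groups. The 7 tested markers, Gata4, Gata6, Sox17, Pdgfra, Dab2, Cubn and Amn, summed to 824 and 26.1 CPM in the Dgcr8-labelled libraries and to 24.4 and 12.6 CPM in the Ago libraries, with 1467 and 1509 CPM in WT. The first Dgcr8-labelled library was thus high like WT and the second was at the level of the Ago libraries. Cubn, the endocytic receptor of visceral endoderm, had 578 and 11.4 CPM in the Dgcr8-labelled libraries and 3.32 and 0.207 CPM in the Ago libraries (log2 7.57, adjusted p = 0.072). Over the 23 tested genes of the full list, the median was 1.60, and it was -0.24 without the first Dgcr8-labelled library. The 1 call was Sox17, an endoderm transcription factor, with 4.84 and 0.598 CPM in the Dgcr8-labelled libraries and 0 and 0.0593 CPM in the Ago libraries. It had 402 counts over both Dgcr8-labelled libraries, 399 of them in the first, and 2 counts over both Ago libraries. The pooled counts gave a ratio of 115 with an exact 95% counting interval of 31.7 to 956. This ratio rests almost wholly on the first Dgcr8-labelled library. The fitted log2 fold change was 6.02 (SE 1.09, adjusted p = 0.038). The Sox17 call ended without the first Dgcr8-labelled library (adjusted p = 0.37), without the first Ago library (0.0999) and without the second (0.13).

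**Figure D3:**
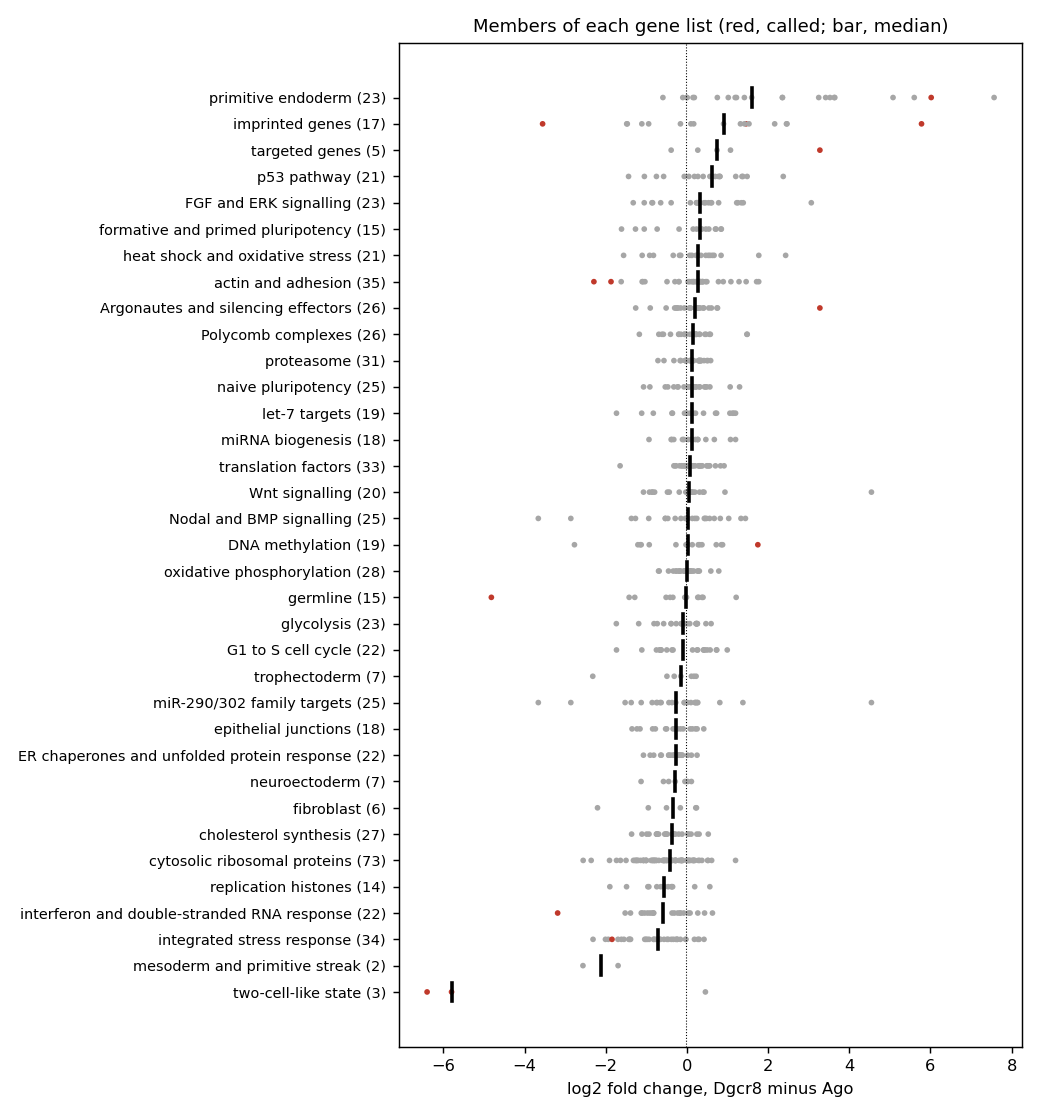
Each row is 1 of the 35 gene lists with its number of tested members in brackets, each point is a gene at its log2 fold change, Dgcr8-labelled minus Ago, red points are called genes, the black bar is the list's median and the dotted line is the median of all genes. The medians run from -5.80 for the 2-cell-like list to 1.60 for primitive endoderm, and 10 of the 35 lists hold a called gene.

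Reported targets of the miR-290 seed family were examined because these microRNAs, made by the Microprocessor and loaded into Ago, are the most abundant ones of mouse embryonic stem cells. Of 25 tested targets 0 were called, and the median was -0.28, with a range of -0.49 to -0.05 over all alternatives. The log2 fold change was below 0 in 15 of the 25 and above 0 in 10, with a highest value of 4.55. In 10 of the 25 both Dgcr8-labelled libraries lay below both Ago libraries, and in 1 they lay above, beside 19.6% and 16.8% of all genes. Lefty1, a secreted inhibitor of Nodal signalling, had 10.03 and 69.5 CPM in the Dgcr8-labelled libraries and 821 and 160 CPM in the Ago libraries (log2 -3.66, adjusted p = 0.19). Its neighbour and paralogue Lefty2 had 4.28 and 50.2 CPM in the Dgcr8-labelled libraries and 223 and 157 CPM in the Ago libraries (log2 -2.86, adjusted p = 0.20). The histone methyltransferase Ash1l had 13.4 and 23.9 CPM in the Dgcr8-labelled libraries and 57.6 and 47.7 CPM in the Ago libraries (log2 -1.52, adjusted p = 0.072). Casp2, an initiator caspase, had 6.51 and 14.3 CPM in the Dgcr8-labelled libraries and 29.9 and 22.4 CPM in the Ago libraries (log2 -1.37, adjusted p = 0.19). In all 4 genes the groups did not overlap, and in none did the difference pass the test. The second Dgcr8-labelled library stood above the first in all 4. Trp53inp1 was the 1 target with both Dgcr8-labelled libraries above. It had 115 and 43.4 CPM in the Dgcr8-labelled libraries and 36.5 and 24.9 CPM in the Ago libraries (log2 1.38, adjusted p = 0.17).

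The mature microRNAs of the miR-290 cluster for which RefSeq (GRCm38.p6) gives a sequence are shown 5′ to 3′ because their shared seed defines the sites searched, with the seed, bases 2 to 8, in capitals.
mmu-miR-291a-3p: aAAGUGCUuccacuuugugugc
mmu-miR-294-3p: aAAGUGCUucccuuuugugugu
mmu-miR-295-3p: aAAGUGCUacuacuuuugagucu
All 3 share the letters AAGUGCU, and the complement searched in the transcripts' 3′ UTRs was AGCACTT, on the mRNA strand only. The match of miR-17 and miR-20 is the same run shifted by 1 base, so the matches of both families overlap.

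Matches in the 3′ UTRs of the 4 lower targets named above are shown because they have the lowest values of the list. They are given with their flanks from GENCODE M21 transcripts on GRCm38, with the 7 matching bases in capitals. Trp53inp1 held 1 match, which is not shown. Ash1l held 2 matches, of which the first is shown.
Lefty1 (chr1:180938204-180938225, plus strand): tgtatgcgaAGCACTTacatgt
Lefty2 (chr1:180897908-180897929, plus strand): cccagtttaAGCACTTacatgg
Ash1l (chr3:89077361-89077382, plus strand): gtactttccAGCACTTccaaag
Casp2 (chr6:42281549-42281570, plus strand): taacctagaAGCACTTgtctct
The match was present in 1928 of the 10921 tested genes with a 3′ UTR, or 17.7%. A match is a run of letters and does not show that a microRNA binds there.

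Among the 39 genes called lower, 6 held a match, and among the 14 called higher, 3 did, namely Adamts9, Arl14epl and Impact. The 6 lower genes and Adamts9 are shown because they are called genes that hold the seed match.
Tmem92 (chr11:94778361-94778382, minus strand): tcctacagcAGCACTTctgtgc
Smyd1 (chr6:71214104-71214125, minus strand): ttcctacaaAGCACTTtatttg
Tbc1d8b (chrX:139752898-139752919, plus strand): gacgctgatAGCACTTtcaaaa
Irf2bp2 (chr8:126590735-126590756, minus strand): tttttaaagAGCACTTggcaaa
Mtbp (chr15:55609936-55609957, plus strand): acgcagtgcAGCACTTcctctg
Trps1 (chr15:50660656-50660674, minus strand): aaccttAGCACTTagcaca
Adamts9 (chr6:92772777-92772798, minus strand): aaatgccagAGCACTTggtgtt
Tbc1d8b and Irf2bp2 held 2 matches each, of which the first is shown. The share of genes called lower was 0.311% among genes with a match and 0.367% among genes without. The share called higher was 0.156% among genes with a match and 0.122% among genes without. Smyd1, a histone methyltransferase of muscle, had 2.97 and 4.58 CPM in the Dgcr8-labelled libraries and 25.5 and 20.4 CPM in the Ago libraries (log2 -2.66, SE 0.38, adjusted p = 0.0155). Irf2bp2, a corepressor, had 16.5 and 22.5 CPM in the Dgcr8-labelled libraries and 77.9 and 66.1 CPM in the Ago libraries (log2 -1.89, SE 0.30, adjusted p = 0.029). Without the first Dgcr8-labelled library Smyd1 had an adjusted p of 0.095 and Irf2bp2 of 0.13, and Irf2bp2 also lost its call without the first (0.058) or the second (0.0501) Ago library. These genes were named for their match after their values were seen.

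Over all genes, those with a miR-290 match had a median log2 fold change of -0.09 and those without one of -0.005, a difference of -0.085. Genes with 2 or more matches, 361 in number, had a median of -0.13. For 2 or more matches of other families, the median was -0.22 for miR-17 and miR-20 and -0.14 for miR-484. It lay between -0.078 and 0.046 for the rest. With genes split into 4 equal bins of 3′ UTR length, the miR-290 difference was -0.034, -0.18, -0.15 and -0.091 in order of length, negative in each. The background seed miR-223 also kept 1 sign, at 0.038, 0.0051, 0.094 and 0.060. Over all lengths, the difference for miR-17 and miR-20 was -0.062. For seeds of other tissues it was -0.0051 for miR-206 of muscle, 0.0071 for miR-9 of neurons and 0.076 for miR-223 of myeloid cells, so the miR-290 difference was about as large as that of a background seed with the opposite sign. For miR-484, which is made without the Microprocessor, it was -0.045, for the mirtron miR-877 it was 0.016, and for let-7, which is scarce in these cells, it was -0.0011. The remaining families, miR-19, miR-92, miR-15/16, miR-130 and miR-21, had differences between -0.0026 and 0.058. Without the first Ago library the miR-290 difference was -0.047, and without the second it was -0.15. Genes with a match had longer 3′ UTRs, with a median of 2487 bases against 947.

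**Figure D4:**
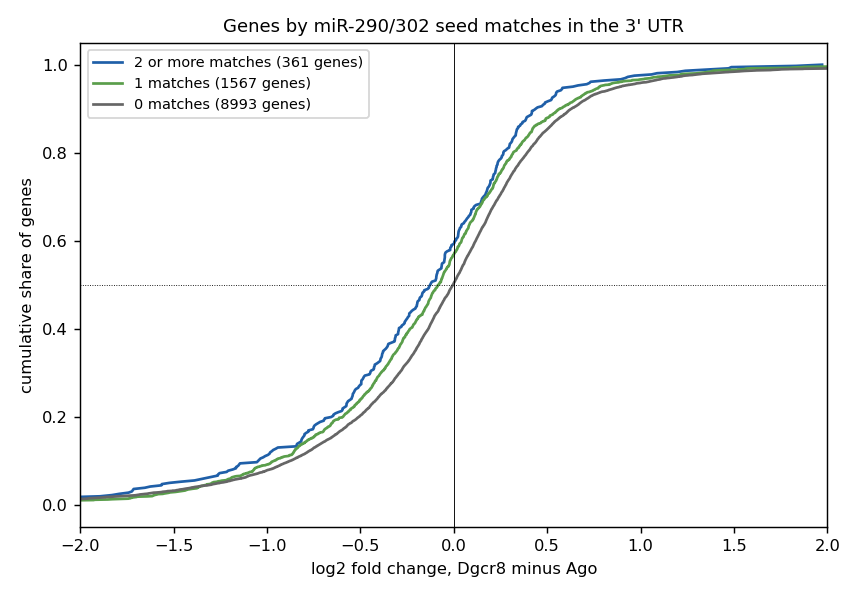
Cumulative share of genes (y axis) by log2 fold change, Dgcr8-labelled minus Ago (x axis, drawn from -2 to 2), for genes with 2 or more, 1 or 0 miR-290 seed matches in the 3′ UTR. The curve of the 361 genes with 2 or more matches lies left of that of the genes with 0, and their medians are -0.13 and -0.005.

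Genes of the integrated stress response, which Atf4 switches on when amino acids run short, leaned lower in the Dgcr8-labelled libraries, mainly through the second library. Gpt2, a mitochondrial alanine transaminase, was the 1 call among 34 tested genes, with 99.1 and 44.6 CPM in the Dgcr8-labelled libraries and 289 and 232 CPM in the Ago libraries (log2 -1.85, SE 0.35, adjusted p = 0.048, and 0.098 without the second Dgcr8-labelled, 0.11 without the first Ago and 0.088 without the second Ago library). Atf4 had 199 and 25.3 CPM in the Dgcr8-labelled libraries and 260 and 126 CPM in the Ago libraries (log2 -0.77). The glycine transporter Slc6a9 had 28.4 and 6.18 CPM in the Dgcr8-labelled libraries and 131 and 49.2 CPM in the Ago libraries (log2 -2.31, adjusted p = 0.17). The second Dgcr8-labelled library was the low one in each of these 3 genes. The median of the list was -0.72. It was -1.36 without the first Dgcr8-labelled library and -0.12 without the second.

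The p53 pathway list and the FGF and ERK signalling list had medians above 0, without a call. Of 21 tested p53 pathway genes the median was 0.61, or 0.17 without the second Ago library, and in 8 genes both Dgcr8-labelled libraries lay above both Ago libraries, against 2 below, beside 16.8% and 19.6% of all genes. Plk2, a kinase induced by p53, had 117 and 55.6 CPM in the Dgcr8-labelled libraries and 23.1 and 10.5 CPM in the Ago libraries (log2 2.37, SE 0.46, adjusted p = 0.051). Phlda3, an inhibitor of Akt, had 47.8 and 44.2 CPM in the Dgcr8-labelled libraries and 18.3 and 14.7 CPM in the Ago libraries (log2 1.48, adjusted p = 0.065). Trp53 itself differed little, at log2 -0.07. Of 23 tested FGF and ERK genes the median was 0.33, with 10 genes above and 6 below, to be read against the same shares. Dusp4, a phosphatase that switches ERK off, had 16.7 and 23.5 CPM in the Dgcr8-labelled libraries and 3.61 and 1.30 CPM in the Ago libraries (log2 3.06, adjusted p = 0.057). Spry2, another inhibitor of the pathway, had 43.9 and 21.1 CPM in the Dgcr8-labelled libraries and 15.4 and 9.78 CPM in the Ago libraries (log2 1.39), while the ligand gene Fgf4 had 87.0 and 148 CPM in the Dgcr8-labelled libraries and 251 and 170 CPM in the Ago libraries (log2 -0.85).

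Metabolic and translational lists held no called gene. Of 27 cholesterol synthesis genes, 12 had both Dgcr8-labelled libraries below both Ago libraries and 0 had them above, beside 19.6% and 16.8% of all genes. The median was -0.36, with a range of -0.68 to -0.27 over all alternatives. Srebf2, the transcription factor that drives the pathway, had 380 and 377 CPM in the Dgcr8-labelled libraries and 932 and 702 CPM in the Ago libraries (log2 -1.11). Of 73 cytosolic ribosomal protein genes the median was -0.41, but it was 0.44 without the second Ago library. Replication histones had a median of -0.56, which was 0.09 without the second Ago library. Glycolysis (median -0.10), oxidative phosphorylation (0.00), proteasome (0.14) and translation factor genes (0.08) had medians near 0 whose signs changed under some alternative. The median was -0.28 for endoplasmic reticulum chaperones and 0.26 for heat shock and oxidative stress genes.

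Of 25 naive pluripotency genes 0 were called and the median was 0.13, with -0.13 without the second Dgcr8-labelled library. In 3 of them both Dgcr8-labelled libraries lay above both Ago libraries and in 5 below, beside 16.8% and 19.6% of all genes. Klf2 had 240 and 424 CPM in the Dgcr8-labelled libraries and 620 and 628 CPM in the Ago libraries (log2 -0.91), and Nr5a2 had 79.2 and 115 CPM in the Dgcr8-labelled libraries and 46.1 and 46.7 CPM in the Ago libraries (log2 1.07). Neither of these transcription factors passed the test. The median was 0.33 for formative and primed genes, 0.15 for Polycomb genes, 0.12 for let-7 targets, 0.05 for Wnt signalling, 0.03 for Nodal and BMP signalling and -0.10 for G1 to S genes, each with 0 calls. Of these, all but the formative and primed list changed the sign of their median under some alternative, as did the germline, DNA methylation, microRNA biogenesis, trophectoderm and epithelial junction lists. Lists of other cell types had few tested members and 0 calls: the median was -0.15 over 7 trophectoderm, -2.13 over 2 mesoderm, -0.29 over 7 neuroectoderm, -0.33 over 6 fibroblast and -0.28 over 18 epithelial junction genes. Of the defining markers, Cdx2, Eomes, Elf5, Gata3, T, Mixl1, Mesp1, Sox1, Pax6, Col1a1, Col1a2, Col3a1, Postn and Foxa2 were not analysed here. Their part in the results was not tested. Kdr, a growth factor receptor of mesoderm, had 13.02 and 8.97 CPM in the Dgcr8-labelled libraries and 35.5 and 36.7 CPM in the Ago libraries (log2 -1.70, adjusted p = 0.27).

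Whole chromosomes differed as well. Of the 452 tested genes on chromosome 15, 79.2% had a log2 fold change below 0, and the median was -0.38. In 188 of them both Dgcr8-labelled libraries lay below both Ago libraries, and in 21 they lay above, beside 19.6% and 16.8% of all genes. The median deviation of chromosome 15 genes from the mean of all 10 libraries was -0.11 and -0.29 in the Dgcr8-labelled libraries, and 0.23 and 0.15 in the Ago libraries. For Drosha it was 0.19 and 0.23, for Dicer 0.22 and 0.00, and for WT -0.12 and -0.30. The Dgcr8-labelled libraries thus stood with WT and the Ago libraries with Drosha. The median stayed between -0.57 and -0.32 under all alternatives. Of the 53 called genes 6 lie on chromosome 15, which holds 4.12% of the genes tested, namely Ago2, which was higher, and Myh9, Itgb7, Trps1, Tspo and Mtbp, which were lower. The fold changes of these genes include any shift of the chromosome. Chromosome 17, with 557 genes, had a median of -0.21, which was -0.07 without the first Ago library. Chromosome 18, with 268 genes, had a median of 0.15. All other autosomes and the X chromosome had medians between -0.06 and 0.09.

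**Figure D5:**
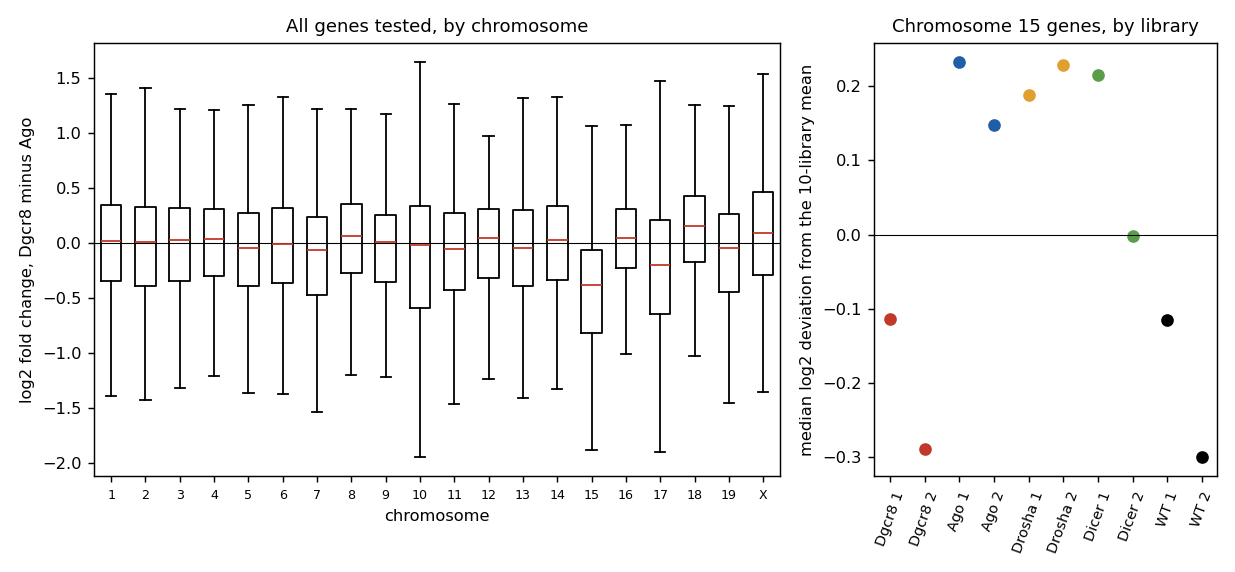
Left, log2 fold change, Dgcr8-labelled minus Ago, of all tested genes by chromosome without Y (line, median; box, lower to upper quartile; whiskers reach the farthest gene within 1.5 box heights). Right, the median log2 deviation of the 452 chromosome 15 genes from the 10-library mean in each library, with Dgcr8-labelled and WT libraries below 0 and Ago and Drosha libraries above.

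Of the 5 tested genes on the Y chromosome, which E14 cells carry, 2 were called lower, beside 0.355% of all genes. Both Dgcr8-labelled libraries lay below both Ago libraries in these and in 2 more without a call, beside 19.6% of all genes. Uty, a histone demethylase homologue, had 1.11 and 0.398 CPM in the Dgcr8-labelled libraries and 44.2 and 26.8 CPM in the Ago libraries (log2 -5.23, SE 0.68, adjusted p = 0.013). Ddx3y, an RNA helicase, had 5.95 and 0.199 CPM in the Dgcr8-labelled libraries and 112 and 86.4 CPM in the Ago libraries (log2 -4.71, SE 0.79, adjusted p = 0.029). Eif2s3y, a subunit of the initiation factor that brings the initiator tRNA, had 7.80 and 0 CPM in the Dgcr8-labelled libraries and 74.1 and 95.0 CPM in the Ago libraries (log2 -4.16, adjusted p = 0.057). Uba1y, which encodes a ubiquitin-activating enzyme, had 1.49 and 0 CPM in the Dgcr8-labelled libraries and 7.99 and 1.75 CPM in the Ago libraries (log2 -2.19, adjusted p = 0.31). In these 4 genes the Dgcr8-labelled libraries lay below WT too, where Uty had 24.4 and 7.38 CPM. The predicted gene Gm47283 lies far from them, at chrY:90784738-90816464, while Uty lies at chrY:1096861-1245759. Gm47283 did not follow them, with 109 and 53.4 CPM in the Dgcr8-labelled libraries and 630 and 52.95 CPM in the Ago libraries, which overlapped (log2 -2.07, adjusted p = 0.34). WT was lower there, at 48.1 and 37.0 CPM. Uty lost its call without the first Dgcr8-labelled library (adjusted p = 0.061), and Ddx3y without the first Ago library (0.058) or the second (0.063). A share of cells without the Y chromosome and less footprint per cell cannot be told apart here, and reads may be shared with the X-linked homologues of these genes.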

How the data were processed

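Ribosome footprints of 10 mouse E14 libraries were analysed. The values are the authors' raw counts of footprint reads per gene, deposited as whole numbers with no normalization. Trimmomatic, Bowtie2 and the builds mm10 (GRCm38) and dm6 (BDGP6) are named per the submitters' processing notes. The counting tool, annotation and strand setting are not given in the sources used here, so overlapping, antisense and paralogous genes cannot be told apart. Columns were matched to labels by library number. For Ago, replicate numbers differ between columns and titles; those of the titles were kept.

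Tests used edgeR 4.0.16 in R 4.3.3: TMM scaling, filterByExpr (33 genes removed) and a quasi-likelihood fit of 5 group means to all 10 libraries, with 5 residual degrees of freedom and a biological coefficient of variation of 0.306. Tests were 2-sided, with Benjamini-Hochberg adjustment at 0.05. Each SE was derived from its test, as the size of the log2 fold change divided by the root of F. The procedure was also run on simulated counts, whose outcome is not given and on which no statement here rests. Counting intervals and floors of 3 counts cover counting error only, since PCR copies are not independent molecules. Alternatives were DESeq2 1.42.0, limma-voom (limma 3.58.1), other scalings, no filter, the 4 libraries alone, replicate blocks, and each library left out.

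Genes were named from the 5 targeted genes; the called genes of largest change, up to 12 per direction, whose libraries did not overlap and whose higher group averaged 20 CPM or more; and up to 4 called members of each of the 35 gene lists, or, where none was called, the 2 of smallest p. Only 11 genes qualified as higher, so Plk2, the uncalled higher gene of smallest p, was added. Predicted genes were skipped. Other list members, chromosomes and seed-matched genes were picked with their values in view. The libraries compared and the lists were chosen with earlier results of these data known. Lists are described by counts and medians, without a test. Coordinates and 3′ UTRs come from GENCODE M21 (GRCm38) and microRNA sequences from RefSeq.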

Additional observations from a re-analysis of the deposited data

How the results depend on the processing

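The 53 calls, 14 higher and 39 lower, moved little with DESeq2 size factors (55), total-count scaling (56) or no filter on low counts (53). DESeq2's Wald test called 359 genes, 116 higher and 243 lower, and limma-voom 436, 135 higher and 301 lower; these held 53 and 52 of the 53. The 4 libraries alone gave 28 calls, 9 higher and 19 lower. Leaving out each library in turn gave between 8 and 98 calls, 1 to 49 higher and 7 to 49 lower. The 53 genes kept their direction under all 18 alternatives, and the causes of lost calls were not tested. A replicate block on the titles' numbers raised the calls to 200, 49 higher and 151 lower, and a replicate block by library number to 387, 43 higher and 344 lower. Libraries of the same title number in the Dgcr8-labelled and Ago groups deviated together with a correlation of 0.144. Over all group pairs it lay between 0.061 and 0.287, positive in each. The main fit used no block, and whether the numbers pair the samples was not tested further. No such check was made for the block by library number. The library numbers were 28 and 39 in the Dgcr8-labelled group and 40 and 52 in the Ago group. In the other groups they ran from 29 to 41. The second Ago library, number 52, stood alone in its block, so that fit compared the Dgcr8-labelled libraries with the first Ago library only. Its calls therefore do not bear on the second Ago library. Among other named genes, which were not called, 3 changed sign. Under the block by library number the log2 fold change was 0.20 for Tubb3, 0.59 for Pgk1 and 0.76 for Hist1h2bc, and with each library left out it ran from -2.59 to 0.60 for Pgk1 and from -2.76 to 0.56 for Hist1h2bc, both highest without the second Ago library. Depth limits low genes most in the second Dgcr8-labelled library, where 3 counts make 0.605 CPM.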

Other observations

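Creb5, a transcription factor of the cAMP response element family, belonged to no list. It had 3.94% of all counts of the second Ago library, and its difference was not called (log2 -3.995, adjusted p = 0.090).

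Other genes called lower belonged to no list. Grin1, a subunit of the NMDA glutamate receptor, had 14.9 and 24.1 CPM in the Dgcr8-labelled libraries and 94.6 and 137 CPM in the Ago libraries (log2 -2.59, adjusted p = 0.015). Itgb7, an integrin of lymphocytes, had 64.3 and 101 CPM in the Dgcr8-labelled libraries and 555 and 519 CPM in the Ago libraries (log2 -2.71, adjusted p = 0.018). Gys1, the glycogen synthase of muscle, had 41.5 and 45.8 CPM in the Dgcr8-labelled libraries and 126 and 108 CPM in the Ago libraries (log2 -1.42, adjusted p = 0.038). None of the 3 had overlapping groups, and without the first Dgcr8-labelled library their adjusted p-values were 0.071, 0.105 and 0.15 in the same order. Itgb7 also lost its call without the second Ago library (0.0501), and Gys1 without any 1 of the other 3 (0.066 to 0.079). Just outside the threshold, the carbonic anhydrase Car2 had a log2 fold change of 2.45 (adjusted p = 0.051) and Fbxo11, a ubiquitin ligase subunit, of -1.42 (adjusted p = 0.055). These genes were chosen after their values were seen.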
